A study of Mus musculus with 2 samples.

Results

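The let-7 family genes Mirlet7b, Mirlet7d, Mirlet7e, Mirlet7g, Mirlet7i and Mir98, 6 of the 2202 miRNA genes counted, each encode a mature miRNA that no other annotated mouse miRNA hairpin contains. They were chosen by gene symbol. Small RNA was sequenced from the adrenal glands of female B6CASTF1/J mice aged 18 to 20 months, an F1 hybrid strain, in 1 group of 2 libraries. Each library is labelled as a biological replicate made from its own tissue sample, yet a single donor record covers both, so the spread given here is that between the samples. All animals shared strain, sex, age and tissue, no treatment is named, and there was no second condition, so the data give the level of each gene and its difference between the libraries.

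The let-7 miRNAs are about 22 bases long and are cut by Drosha and Dicer from hairpin precursors. Bases 2 to 8 of the mature strand, the seed, pair with target messenger RNAs and lower their stability and translation, and RAS and HMGA2 transcripts are classical targets. The family rises as cells differentiate, and the RNA-binding protein LIN28 holds it back in stem cells by binding their precursors.

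The mature 5p strands of the 6 genes, the arm with the family seed, are shown. They carry both what the members share and what allows reads of that arm to be told apart. They are RefSeq sequences on build GRCm38.p6, written 5′ to 3′ with the seed in capitals. The let-7a and let-7c strands, each present in 2 annotated hairpins, follow for comparison.
let-7b-5p: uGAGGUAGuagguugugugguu
let-7d-5p: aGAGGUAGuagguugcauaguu
let-7e-5p: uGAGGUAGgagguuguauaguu
let-7g-5p: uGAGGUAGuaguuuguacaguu
let-7i-5p: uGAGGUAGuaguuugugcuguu
miR-98-5p: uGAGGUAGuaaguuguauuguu
let-7a-5p: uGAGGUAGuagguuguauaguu
let-7c-5p: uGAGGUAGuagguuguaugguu

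All 6 members had the same seed and the same length of 22 bases, and 14 of the 22 positions held 1 base in all of them. Counted from 1 at the 5′ end, with the let-7a base first, let-7e differed from let-7a only by U9G. The miR-98 strand differed by G11A and A19U, and let-7g by G12U and U18C. The let-7b strand differed by A17G and A19G. The let-7d strand differed by U1A and U16C, and it is the only 1 of the 6 that does not begin with U. The let-7i strand was the farthest from let-7a, with G12U, A17G, U18C and A19U. Between members the number of differing bases ran from 2, for let-7g and let-7i, to 6, for let-7d and let-7i.

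Among annotated hairpins the single-locus label held for both arms, since each 5p and each 3p sequence occurred in exactly 1 of the 2202. Copies elsewhere in the genome were not searched for. The members were less distinct when mismatches or short reads are allowed. The let-7b strand lay 1 mismatch from the Mirlet7c-1 and Mirlet7c-2 hairpins, let-7e lay 1 mismatch from Mirlet7a-1 and Mirlet7a-2, and let-7i lay 1 mismatch from Mir7j. The let-7d, let-7g and miR-98 strands were at least 2 mismatches from any other hairpin. From the 5′ end, strands were compared only among the members, let-7a, let-7c and let-7f. There let-7b shared its first 16 bases with let-7a and let-7c, and let-7g shared its first 16 with let-7i. In that set let-7e diverged from the others after 8 bases and let-7d at the first. Over whole hairpins, the longest run shared with another hairpin was 19 bases for Mirlet7b, with Mirlet7c-2. It was also 19 for Mirlet7g and Mirlet7i, with each other. Mirlet7e shared 17 bases with Mir7k (let-7k), Mir98 shared 17 with Mirlet7b, and the longest run of Mirlet7d was 14. How many mismatches the alignment allowed is not given in the sources used here, and transfer of reads between these genes was not tested.

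**Figure D1:**
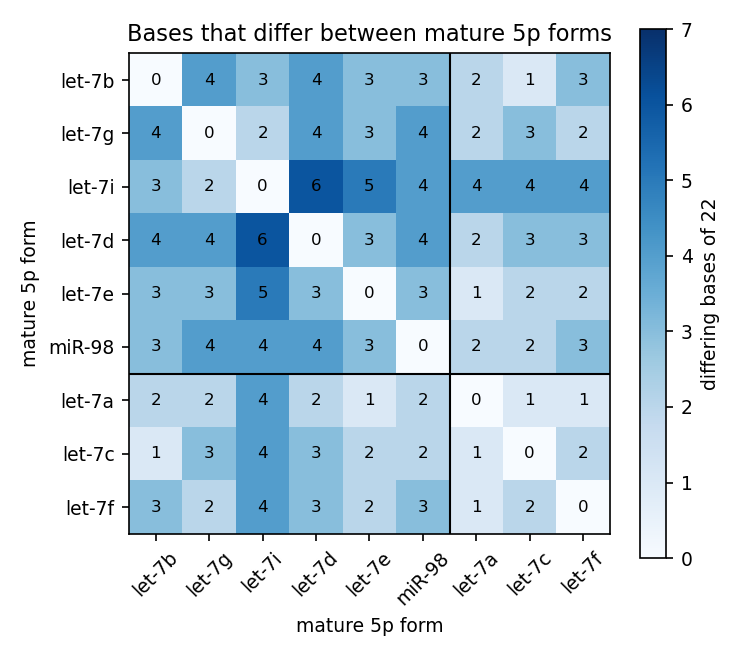
Number of bases, of 22, that differ between the mature 5p strands of the 6 members (above and left of the lines) and of let-7a, let-7c and let-7f, whose sequences lie at duplicated loci. The closest approach of a member to a duplicated sequence is 1 base, for let-7b with let-7c and for let-7e with let-7a, and the farthest pair is let-7d with let-7i at 6.

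Counts are reads assigned to a hairpin gene on its own strand, and both arms of a hairpin are counted together. Their totals were 2590051 in replicate 1 and 2291030 in replicate 2, and CPM are counts per 1000000 of these totals. Together the 6 genes held 27.6% of own-strand counts in replicate 1, with a Wilson 95% interval from 27.6 to 27.7. Their sum held 28.1% in replicate 2, where the interval ran from 28.0 to 28.1, and averaged 27.8% ± 0.317 (SD, n = 2). All intervals here reflect counting alone, and reads copied by PCR are not separate molecules. Within the 12 let-7 genes measured, the 6 took 97.3% of counts in replicate 1 and 97.8% in replicate 2. That split does not measure let-7a, let-7c and let-7f, because reads that align to several places are kept out of the gene counts. Such reads, whatever their source, numbered 3.30 and 3.05 for each read of the 6 members in replicates 1 and 2.

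Mirlet7b had the highest own-strand count of any miRNA gene in both libraries, a rank that leaves out reads aligned to several places. It had 268633 counts in replicate 1 and 313287 in replicate 2, or 103717 and 136745 CPM, a mean of 120231 ± 23354 CPM (SD, n = 2). Its level was higher in replicate 2. The gene (ENSMUSG00000065564.1) is on the plus strand of chromosome 15, chr15:85707319-85707403 on mm10 with GENCODE M21, within an exon of the processed transcript Lncppara.

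Mirlet7g ranked second in both libraries. It had 208584 and 165200 counts, or 80533 and 72107 CPM, a mean of 76320 ± 5958 CPM (SD, n = 2). Its values did not overlap those of Mirlet7b or of any other member. The gene (ENSMUSG00000065440.1) is at chr9:106178840-106178927, plus strand, and is intronic in Wdr82, which encodes a subunit of histone H3 lysine methyltransferase complexes.

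Mirlet7i and Mirlet7d followed, and their order changed between the libraries. Mirlet7i had 88393 and 71071 counts, or 34128 and 31021 CPM, a mean of 32575 ± 2197 CPM (SD, n = 2), at ranks 9 and 10 of all miRNA genes. Mirlet7d had 103692 and 56719 counts, or 40035 and 24757 CPM, a mean of 32396 ± 10803 CPM (SD, n = 2), at ranks 7 and 11. The range of Mirlet7d contained both values of Mirlet7i, so the order of these neighbours is not set by these data. Mirlet7i (ENSMUSG00000065406.3) is at chr10:122985640-122985724, minus strand, within an exon of the transcribed pseudogene D630033A02Rik. Mirlet7d (ENSMUSG00000065453.1) is at chr13:48536012-48536114, minus strand, within an exon of the lincRNA 6720427I07Rik.

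Mirlet7e and Mir98 were the lowest of the 6. Mirlet7e had 32942 and 26752 counts, or 12719 and 11677 CPM, a mean of 12198 ± 737 CPM (SD, n = 2), and ranked 20 in both libraries. Mir98 had 12860 and 9774 counts, or 4965 and 4266 CPM, a mean of 4616 ± 494 CPM (SD, n = 2), at ranks 34 and 37. Neither range overlapped that of another member. Mirlet7e (ENSMUSG00000105758.1) is at chr17:17830352-17830444, plus strand, intronic in Spaca6, a gene of sperm-egg fusion. Mir98 (ENSMUSG00000065536.2) is at chrX:151913214-151913321, plus strand, intronic in Huwe1, which encodes a ubiquitin ligase. From Mirlet7b to Mir98 the levels spanned a 20.9-fold range in replicate 1 and a 32.1-fold range in replicate 2.

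**Figure D2:**
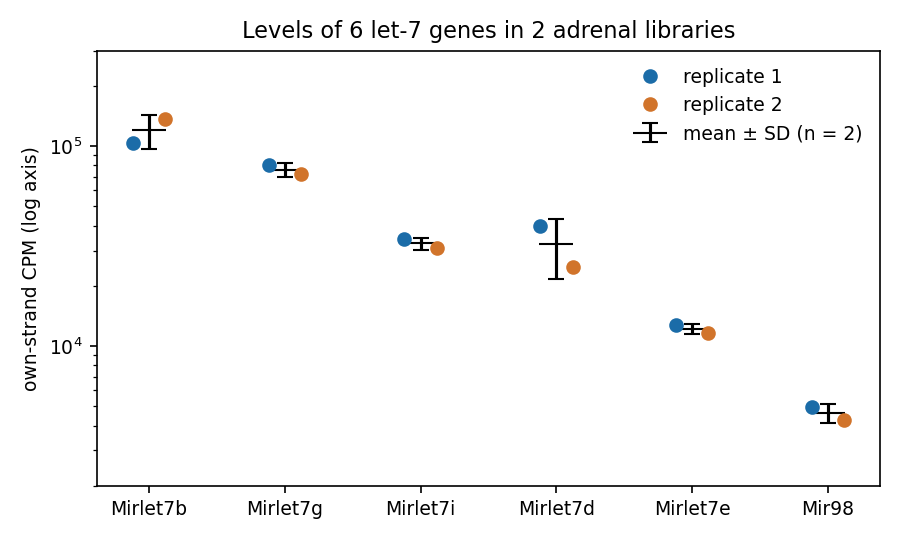
Own-strand CPM (log axis) of the 6 genes in replicate 1 and replicate 2, with the mean and SD of the 2 libraries as black bars. Mirlet7b lies highest at 103717 and 136745 CPM and Mir98 lowest at 4965 and 4266, and the ranges of Mirlet7i and Mirlet7d overlap.

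Between the libraries, Mirlet7d and Mirlet7b differed more than the other 4 members. Every one of the 6 passed the exact conditional binomial test, with a threshold of 0.05 on p adjusted by Benjamini-Hochberg over the 367 miRNA genes with a summed count of at least 20. Mirlet7b was higher in replicate 2, and the other 5 were higher in replicate 1. This test compares the reads of these 2 libraries with counting error as its only spread. Of all 367 genes, 62.7% passed it (30.2% upward in replicate 2, 32.4% upward in replicate 1), and 97.2% passed among the 72 genes with a mean of at least 1000 CPM, a level every member exceeds. Among those 72, 40 passed upward in replicate 2 and 30 upward in replicate 1. With TMM factors taken from all genes, the split over the 367 genes was 85 higher in replicate 2 and 139 higher in replicate 1 in place of 111 and 119, with the median log2 ratio shifted by -0.13, and the members' directions were as before. Those factors gave log2 ratios of -0.22 for Mirlet7e, -0.25 for Mirlet7g, -0.23 for Mirlet7i and -0.31 for Mir98, each over 1.5 times the value below.

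Mirlet7b had a log2 ratio, replicate 2 over replicate 1, of 0.44 (95% interval 0.43 to 0.44), or 1.35-fold. Mirlet7d had a log2 ratio of -0.66 (-0.67 to -0.64), or 1.58-fold higher in replicate 1, the largest difference of the 6. For both, the adjusted p of the exact test was below the smallest number that the calculation holds. The other 4 lay close together. Mir98 had a log2 ratio of -0.18 (-0.22 to -0.14; adjusted p = 2.2e-20, exact test) and Mirlet7g of -0.12 (-0.13 to -0.11; adjusted p = 7.8e-145, exact test). Mirlet7i had -0.10 (-0.11 to -0.09; adjusted p = 1.1e-42, exact test) and Mirlet7e had -0.09 (-0.11 to -0.06; adjusted p = 1.4e-12, exact test).

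The median log2 ratio of the 6 was -0.11, beside 0.02 over the 367 genes and 0.13 over the 72 genes of at least 1000 CPM. The median absolute log2 ratio of the 6 was 0.15, beside 0.46 over the 367 and 0.41 over the 72. Over all tested genes edgeR's common dispersion gave a biological coefficient of variation of 0.432, which corresponds to an SD of 0.88 for a log2 ratio of 2 libraries. All 6 members, from 0.09 to 0.66 in absolute value, lay inside that SD, and so did most of the 367 genes. Within 2-fold, a slightly wider limit, were 298 of the 367. Ordered by absolute log2 ratio, Mirlet7d was at position 137 of the 367 genes, Mirlet7b at 194, Mir98 at 285, Mirlet7g at 307, Mirlet7i at 316 and Mirlet7e at 323. These medians and positions rest on the main TMM factors. With factors from all genes, the median log2 ratio over the 367 genes was -0.12, and the other medians and the positions were not recalculated. Those factors gave larger absolute ratios for Mirlet7e, Mirlet7g, Mirlet7i and Mir98, as stated above.

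**Figure D3:**
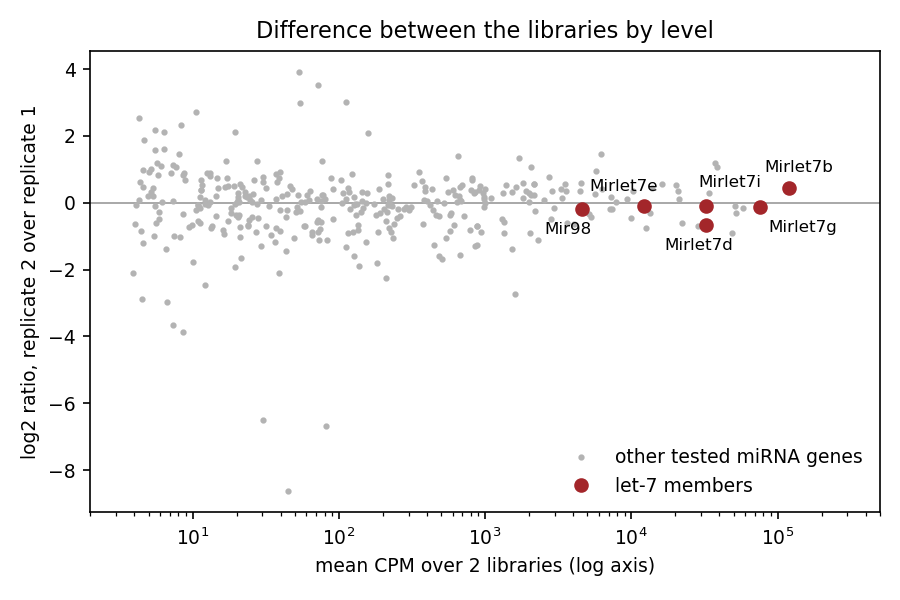
Log2 ratio of replicate 2 over replicate 1 (TMM-scaled) against the mean CPM of the 2 libraries (log axis) for the 367 tested miRNA genes, with the 6 members in red. Mirlet7b stands above 0 at 0.44, Mirlet7d below at -0.66, and the other 4 lie between -0.18 and -0.09.

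Ratios between members within a library do not depend on how the libraries are scaled. Over the 6 pairs of Mirlet7e, Mirlet7g, Mirlet7i and Mir98, the ratio of counts changed between the libraries by 1.01-fold to 1.07-fold. Mirlet7g exceeded Mirlet7i by 2.36-fold in replicate 1 and 2.32-fold in replicate 2. Mirlet7e stood at 0.373 and 0.376 of Mirlet7i, and this was the only pair of the 15 whose 95% counting interval for the change included 0 on the log2 scale (-0.01 to 0.04).

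In the 9 pairs with Mirlet7b or Mirlet7d the ratio changed by 1.39-fold to 2.13-fold. The ratio of Mirlet7b to Mirlet7g rose from 1.29 in replicate 1 to 1.90 in replicate 2, and that of Mirlet7d to Mirlet7g went from 0.497 to 0.343. Mirlet7b over Mirlet7d went from 2.59 to 5.52, the largest change, and Mirlet7d over Mirlet7i crossed 1, from 1.17 to 0.798. Mirlet7b accordingly made up 37.6% of the 6-gene sum in replicate 1 and 48.7% in replicate 2, while Mirlet7d made up 14.5% and 8.82%.

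For scale, the 2556 pairs of the 72 miRNA genes with at least 1000 CPM had a median change of 1.50-fold. A change of no more than 1.07-fold, the largest among the 4 genes, was found in 9.31% of those pairs, and a change of at least 2.13-fold in 20.6%. The division into 4 genes and the other 2 was made after the values were seen, and the pairs share genes, so no test was made of it.

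**Figure D4:**
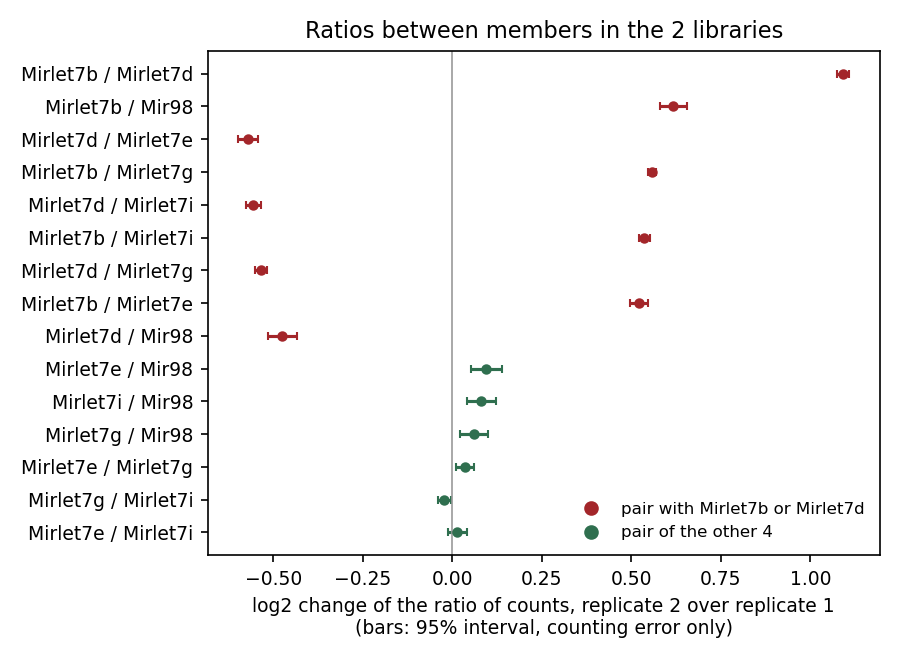
Change between the libraries in the ratio of counts of each pair of members, as log2 of replicate 2 over replicate 1, with 95% intervals for counting error only. The 6 pairs of Mirlet7e, Mirlet7g, Mirlet7i and Mir98 (green) lie near 0, from 1.01-fold to 1.07-fold, and the 9 pairs with Mirlet7b or Mirlet7d (red) lie from 1.39-fold to 2.13-fold away.

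Some cell type markers also moved between the libraries. The 8 striated muscle miRNAs listed summed to 598 CPM in replicate 1 and 81.2 in replicate 2, with 1 of 8 (Mir206) detected in both, at 10 or more counts in each. Mir1a-1, Mir133a-1 and Mir133a-2 were at 0, but miR-1a and miR-133a are known to be encoded at more than 1 locus, so their reads can be missing from the counts. The endothelial Mir126a took 6.48% and 3.34% of counts, and the 3 endocrine and neuroendocrine miRNAs, Mir375, Mir7b and Mir137, took 6.63% and 5.68%. Of the 2 erythroid markers, Mir451a had 740 and 349 CPM and Mir486 had 70.7 and 81.6 CPM. The 4 kidney markers summed to 107 and 72.9 CPM, with 3 of 4 detected. The 3 leukocyte markers, at a summed 1063 and 1079 CPM, and the liver miRNA Mir122, at 622 and 702 CPM, lay closer together. The 3 smooth muscle and mesenchymal markers summed to 5.95% and 5.70% of counts but moved in different directions, with Mir143 at 27092 and 17510 CPM, Mir145a at 1350 and 2765 CPM and Mir10a at 31017 and 36714 CPM. The 3 pancreatic acinar markers summed to 5 counts and 0. Their part in the members' differences was not tested, and fewer cells of a type and less RNA per cell cannot be told apart in whole glands.

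Within 10 kb, 4 of the 6 members have another miRNA gene on their strand, and Mirlet7g and Mirlet7i have none. Distances are from hairpin start to hairpin start. Mirlet7b lies 716 bp downstream of Mirlet7c-2, which had 4560 and 4300 counts (1761 and 1877 CPM). Mirlet7b exceeded it by 58.9-fold in replicate 1 and 72.9-fold in replicate 2. Mirlet7c-2 had a log2 ratio of 0.13 (0.07 to 0.19), the same direction as Mirlet7b and smaller.

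Mirlet7d lies 1803 bp downstream of Mirlet7f-1 and 2158 bp downstream of Mirlet7a-1. Mirlet7f-1 had 784 and 514 counts and a log2 ratio of -0.39 (-0.56 to -0.23), in the direction of Mirlet7d. Mirlet7a-1 had 1213 and 1075 counts and a log2 ratio of 0.04 (-0.08 to 0.16), short of the threshold (exact test, adjusted p = 0.601). Mirlet7d exceeded Mirlet7a-1 by 85.5-fold and 52.8-fold.

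Mir98 lies 868 bp downstream of Mirlet7f-2, and the levels of these 2 were the closest of any let-7 neighbours here. Mirlet7f-2 had 11370 and 6474 counts, or 4390 and 2826 CPM, and a log2 ratio of -0.60 (-0.64 to -0.55). Mir98 exceeded it by 1.13-fold in replicate 1 and 1.51-fold in replicate 2. The 3 duplicated neighbours that passed, and Mirlet7a-1, carry mature strands found in 2 hairpins, so reads of those strands can be missing from their counts, and the excess of the members over them is not a ratio of the mature miRNAs.

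Mirlet7e sits between Mir99b, 164 bp upstream, and Mir125a, 460 bp downstream, an arrangement conserved from flies to mammals. Mir99b had 8762 and 20811 counts (3383 and 9084 CPM) and Mir125a had 20424 and 15588 (7886 and 6804 CPM). Mirlet7e exceeded Mir125a by 1.61-fold and 1.72-fold. It exceeded Mir99b by 3.76-fold in replicate 1 but by 1.29-fold in replicate 2, since Mir99b had a log2 ratio of 1.46 (1.43 to 1.50). Mir99b and Mir125a are part of a list of the 6 miR-99/100 and miR-125 genes, of which 5 were higher in replicate 1, and Mir99b was higher in replicate 2, with a median log2 ratio of -0.30, and 62.7% of all 367 genes passed the same test.

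**Figure D5:**
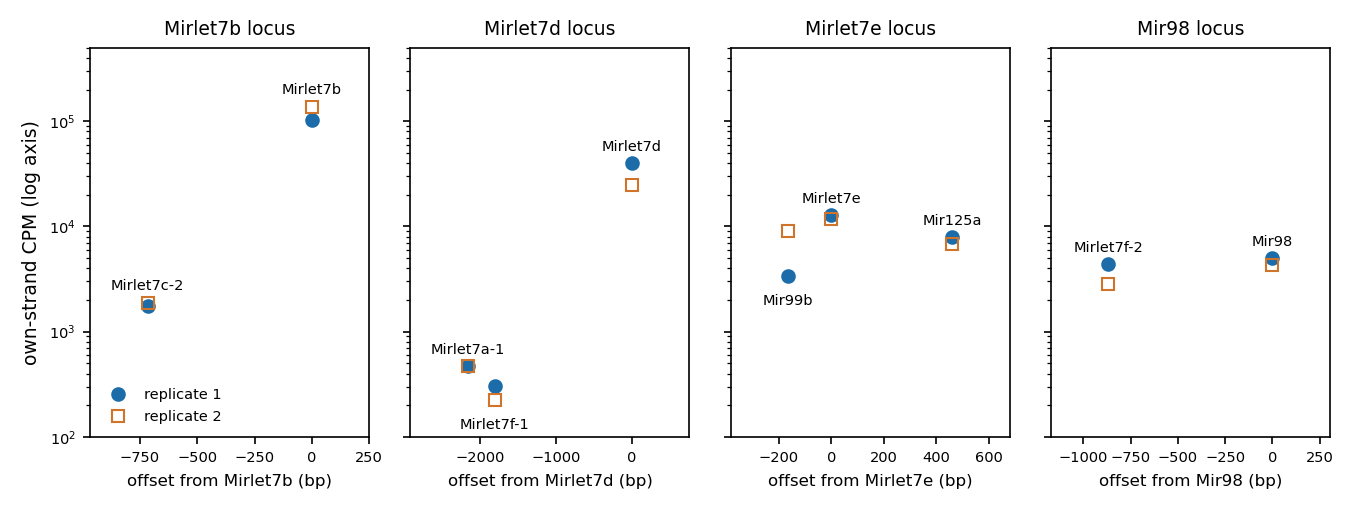
Own-strand CPM (log axis) of Mirlet7b, Mirlet7d, Mirlet7e and Mir98 and of their same-strand miRNA neighbours up to 10 kb away, by distance in bp along the direction of transcription (0 is the named member). Mirlet7b and Mirlet7d stand 52.8-fold or more above their neighbours, whereas Mirlet7e and Mir98 lie within 3.76-fold of theirs.

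Counting by strand decides the value of Mirlet7e, which overlaps the predicted miRNA gene Gm25927 on the opposite strand. With strand ignored, both genes had 0 counts in both libraries, because reads in 2 overlapping genes are set aside as ambiguous. The other 5 members had strand-ignored counts within 12 of their own-strand counts. Gm25927 had 0 counts on its own strand in both libraries, which allows up to 1.16 CPM in replicate 1 and 1.31 CPM in replicate 2.

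The seed occurs in 11 distinct mature sequences from 13 genes in RefSeq, namely the 6 members, 5 genes of let-7a, let-7c and let-7f (Mirlet7a-2 has no 5p entry there), Mir7k (let-7k) and Mir1961. Mir7k had 3 and 2 counts and Mir1961 had 0 in both libraries. Mir7j (let-7j), which differs from the family within the seed, had 111 and 82 counts, or 42.9 and 35.8 CPM. The 6 genes of let-7a, let-7c and let-7f summed to 0.779% and 0.624% of counts, from 205.8 and 154.5 CPM for Mirlet7a-2 to those of Mirlet7f-2. Of these 6, 3 were higher in replicate 1 (Mirlet7a-2, Mirlet7f-1 and Mirlet7f-2), 1 was higher in replicate 2 (Mirlet7c-2), and 2 did not pass (Mirlet7a-1 and Mirlet7c-1), with a median log2 ratio of -0.17, beside 62.7% of all 367 genes that passed.

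Outside the family, the detected miRNA with the nearest pair of levels was found for each member by distance over log2(CPM + 1) in the 2 libraries. Mirlet7d lay nearest to Mir21a, at a distance of 0.26, with 35736 and 21558 CPM. Mir98 lay nearest to Mir411 (distance 0.23), Mirlet7e to Mir99a (0.25) and Mirlet7i to Mir10a (0.28). Mir375, at 62443 and 54040 CPM, was nearest to Mirlet7g (0.55) and also to Mirlet7b, at a distance of 1.53, the widest gap of the 6. With 2 libraries, this distance reflects level more than any pattern.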

How the data were processed

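The authors deposited raw read counts per miRNA gene for each library, in 3 columns (strand ignored, and each strand), with genome build mm10 and annotation GENCODE M21 per the deposited notes. Not given in the sources used here are the aligner, counting program, trimming and mismatch limit. Of the stranded columns, the first gave the own-strand counts. Rows that name no gene, 4 per library, stayed out of totals and tests: in replicates 1 and 2, 40.6% and 29.8% of reads were unmapped, 24.0% and 28.0% aligned to several places, 8.94% and 9.44% fell in no miRNA gene, and 26.4% and 32.8% were counted on the own strand. The reference is C57BL/6J, so loss of CAST/EiJ alleles is possible and was not tested.

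Libraries were scaled with edgeR 4.0.16 TMM factors (1.01 and 0.987) from genes with a summed count of at least 20. A two-sided exact conditional binomial test (scipy 1.17.1) compared raw counts, with Benjamini-Hochberg adjustment over all genes tested. It was tested on simulated data with counting error alone, which cannot show how it behaves with spread between samples. A quasi-likelihood test has no residual degrees of freedom here. Log2 ratios used a prior count of 0.5. Intervals are 95%, and a count of 0 allows 3 counts. DESeq2 1.42.0 size factors were among the alternatives. Host genes came from GENCODE M21, and sequences from RefSeq on GRCm38.p6, where all 12 let-7 genes matched. Named genes were the members, other let-7 and same-seed genes, same-strand neighbours within 10 kb, and the nearest miRNA in level. The members and lists were chosen with earlier results of these data known.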

Additional observations from a re-analysis of the deposited data

Results flagged for a closer look

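Mirlet7b had 12 opposite-strand counts in replicate 1 and 8 in replicate 2, above the 3 that a count of 0 allows, in a column that the comparisons do not use. Mir98 had 1 in each library and the other 4 members had 0. No annotated miRNA gene lies on its opposite strand.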

How the results depend on the processing

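All 6 members passed the exact test with the same direction under DESeq2 size factors, own-strand totals and totals without the let-7 family. All 6 also passed with either other count minimum (1 or 200), which leaves the ratios as they are. With strand ignored 5 passed, since Mirlet7e had no counts, and with a fold of at least 2 required 0 passed, beside 17.7% of the 367 genes tested. After the data were seen, TMM factors from all genes and a minimum of 1000 CPM were added, and 6 passed under each. Over the settings, a prior count of 5 included, the log2 ratio ranged from 0.30 to 0.44 for Mirlet7b, -0.79 to -0.66 for Mirlet7d, -0.22 to -0.09 for Mirlet7e, -0.25 to -0.12 for Mirlet7g, -0.23 to -0.10 for Mirlet7i and -0.31 to -0.18 for Mir98, so Mirlet7e, Mirlet7g and Mirlet7i more than doubled under factors from all genes. The summed share was 30.7% with strand ignored, 8.24% of all reads in the tables and 33.8% without other genes that share 18 bases of hairpin, and 27.6% to 28.1% with either replicate left out. The strand-ignored share holds no Mirlet7e counts and is a percent of the strand-ignored total. The other 2 also change the denominator. All 6 members were kept for the 33.8%, although Mirlet7b, Mirlet7g and Mirlet7i themselves share 18 bases with another hairpin. That share could therefore only rise. No paired analysis was possible because there is 1 group. Counting error is small at these depths, and 2 libraries limit what the spread shows.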
